A study of Mus musculus with 6 samples.

Results

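The genes described here are 9 genes of glycogen metabolism, taken by name from 17558 genes in the deposited table of C2C12 cells. They encode the 3 isozymes of glycogen phosphorylase (Pygm, Pygb and Pygl), the muscle form of glycogen synthase (Gys1), the branching enzyme (Gbe1), UDP-glucose pyrophosphorylase (Ugp2), subunits of phosphorylase kinase (Phka1 and Phkg1) and a glycogen-targeting subunit of protein phosphatase 1 (Ppp1r3c). All 9 had counts in the table and all 9 were among the 12643 genes that passed the filter on low counts. Pygl and Ppp1r3c passed it only through the group in which they were high, so their differences from that group are given as descriptions of these libraries.

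C2C12 cells are muscle precursors of the mouse, kept as a permanent line, which stop dividing and fuse into myotubes when serum is withdrawn. Cells of all groups had spent 48 h in medium with horse serum and an insulin, transferrin and selenium supplement before harvest. Controls (shScr, genotype label WT) were stably transfected with a hairpin of scrambled sequence. The other groups carried hairpins directed at the Pkm1 (shPkm1) or Pkm2 (shPkm2) form of the glycolytic enzyme pyruvate kinase. Each group had 2 libraries. The labels do not say whether a stable line is a clone or a pool, nor whether the libraries of a group came from separate cultures, so p-values measure only the spread between these libraries, which may be technical.

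Glycogen is built from UDP-glucose: a glucose-phosphate is turned into UDP-glucose by Ugp2, glycogenin starts a chain, glycogen synthase lengthens it and the branching enzyme adds branches. Phosphorylase removes glucose units from the ends, after activation by phosphorylase kinase, which responds to calcium and to protein kinase A. Protein phosphatase 1, brought to the particle by targeting subunits, reverses that phosphorylation and activates the synthase. Skeletal muscle fibres store glycogen as fuel for contraction, and Pygm is the phosphorylase of mature muscle, while Pygb is the form named for brain and Pygl the form of liver.

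Each library held between 18216904 and 19796021 estimated counts. The control pair differed more than the other pairs: the chi-square per degree of freedom between its libraries was 32.3, against 6.16 in shPkm1 and 6.93 in the shPkm2-labelled libraries. The transcript of the Pkm1 isoform stood at 546 and 589 TPM (a level scaled to transcript length and to the library's total) in shScr, at 243 and 218 in shPkm1 and at 254.1 and 254.2 in the shPkm2-labelled libraries. The transcript of the Pkm2 isoform was at 1073 and 1517 TPM in shScr, 1278 and 1379 in shPkm1 and 2699.7 and 2629.5 in the shPkm2-labelled libraries, so it was not lower where the label names it. For that reason the group is called by its label throughout. The summed level of 12 myotube markers was 46739 and 34569 TPM in shScr, 14813 and 16054 in shPkm1, and 325 and 336 in the shPkm2-labelled libraries. All 12 were lower in each comparison with shScr. Of markers of cell types that a myoblast line should lack, 5 fibroblast genes summed to 2.11 to 2.12 TPM in shScr, 14.8 to 16.6 in shPkm1 and 9.96 to 10.7 in the shPkm2-labelled libraries. Sums over the listed adipocyte, leukocyte and endothelial genes did not pass 3.62 TPM in any library. Thy1, Lum, Adipoq and Plin1 were at 0 in at least 2 libraries. The table has no entry for the adipocyte gene Cidec or the leukocyte genes Ptprc, Cd3e and Adgre1. The leukocyte sum was therefore Cd68 alone, at 0.62 and 1.47 TPM in shScr, 3.24 and 2.32 in shPkm1, and 3.01 and 3.62 in the shPkm2-labelled libraries.

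Differences between groups were tested with edgeR's quasi-likelihood F-test over all 12643 genes, and a gene was called at a Benjamini-Hochberg adjusted p under 0.05. Its fold changes use TMM scaling (trimmed mean of M values), which sets the typical gene to no change. Of the 9 genes, 7 passed in shPkm1 against shScr, 3 higher and 4 lower, where 63.1% of all tested genes passed, 31.8% higher and 31.4% lower. In the shPkm2-labelled libraries against shScr 4 of 9 passed, 1 higher and 3 lower, where 68.0% of all genes did, 33.9% higher and 34.2% lower. Between the Pkm hairpin groups 5 of 9 passed, 1 higher and 4 lower in the shPkm2-labelled libraries, where 53.0% of all genes did, 25.7% higher and 27.3% lower. Pygl and Ppp1r3c make up 2 of the 3 higher calls in the first comparison and 2 of the 4 lower calls in the last, and their calls support nothing, for the reason given above. With most genes of the series called, these counts over 9 genes are no result about glycogen genes as a set, and the genes moved in both directions. With library totals as the only scaling the split in the shPkm2-labelled libraries against shScr was 3 higher and 2 lower. Their median log2 fold change was -0.23, -0.61 and 0.03 in the 3 comparisons, against -0.00, 0.01 and 0.00 over all tested genes. Over the 7 genes without Pygl and Ppp1r3c it was -0.67, -0.59 and 0.08. Both comparisons with shScr share the control libraries.

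**Figure D1:**
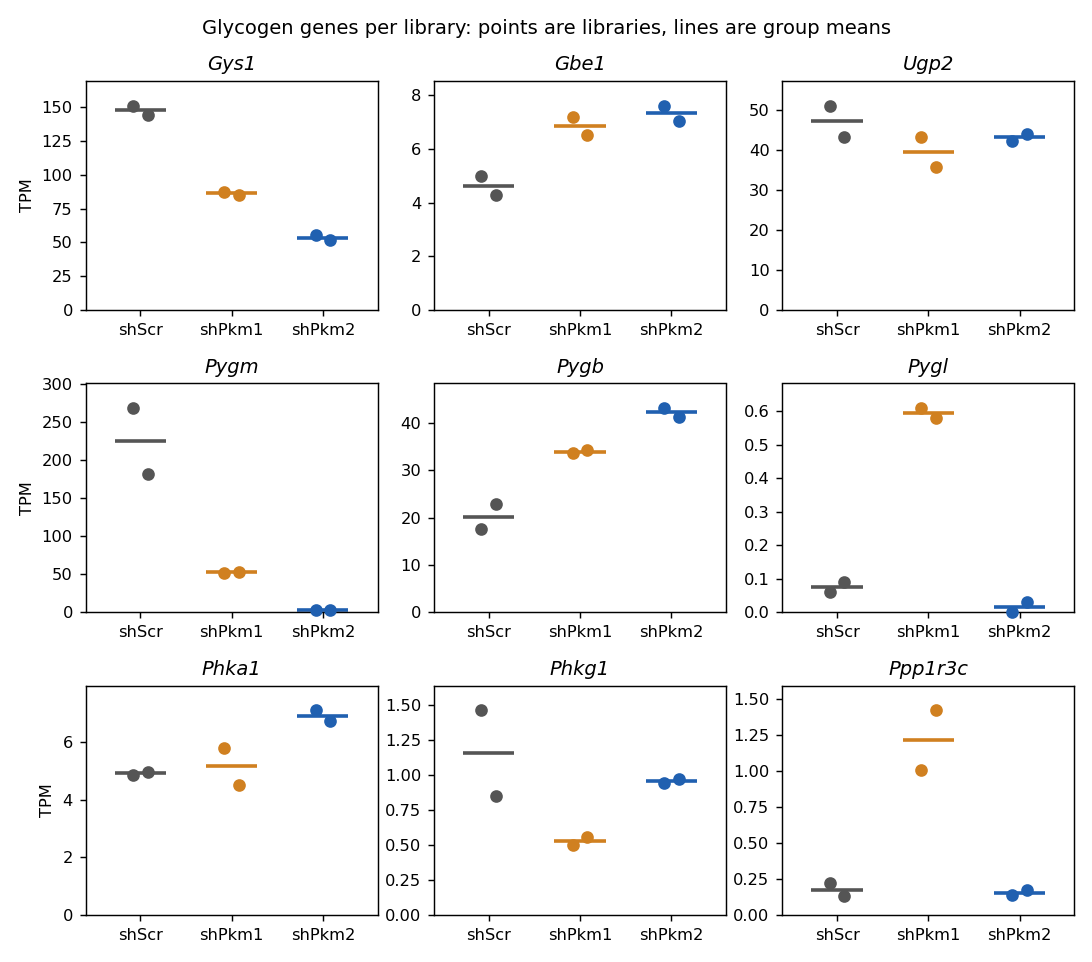
Level of the 9 glycogen genes in TPM (y axis, linear, from 0) in each library, by group on the x axis, with points for libraries and lines for the mean of 2. Pygm and Gys1 step down from shScr to shPkm1 to the shPkm2-labelled libraries, Pygb steps up, and Pygl and Ppp1r3c are highest in shPkm1 at levels under 1.5 TPM.

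Pygm, on mouse chromosome 19 (GRCm38, plus strand, 6384408 to 6398464), spanned the widest range of levels of the 9 genes. Its level was 268 and 182 TPM in the control libraries, 52.2 and 53.2 in shPkm1, and 3.39 and 3.10 in the shPkm2-labelled libraries. The groups did not overlap, and the estimated counts behind these levels fell from 9227 and 6230 to 1493 and 1694 and then to 105 and 100. In the edgeR test the log2 fold change against shScr was -2.50 in shPkm1 (SE 0.182, adjusted p 1.21e-07), a 5.67-fold lower level. For the shPkm2-labelled libraries it was -6.59 (SE 0.236, adjusted p 5.91e-11), a 96.3-fold lower level. Between the Pkm hairpin groups it was -4.09 (SE 0.224, adjusted p 6.99e-09), so both neighbouring pairs in the order of levels differed beyond their spread. On deposited TPM the means of shPkm1 and of the shPkm2-labelled libraries were 4.27-fold and 69.4-fold lower than in shScr, so the folds depend on the scaling. The control libraries differed from each other in Pygm, and leaving out one of them moved the shPkm1 value to between -2.82 and -2.09 with the call unchanged. In this and every other fit with a library left out, the lone library of its group is assumed to vary like those of the other groups.

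Pygb, the phosphorylase form named for brain, moved the other way. On chromosome 2 (plus strand, 150786796 to 150831748), it was at 17.6 and 22.9 TPM in shScr, 33.6 and 34.2 in shPkm1, and 43.2 and 41.3 in the shPkm2-labelled libraries. The order was the reverse of that of Pygm, again without overlap between groups. The edgeR log2 fold change was 0.36 for shPkm1 (SE 0.103, adjusted p 0.00786) and 0.61 for the shPkm2-labelled libraries (SE 0.103, adjusted p 0.000139). Without shPkm1 library 2 the first of these was 0.31 and no longer past the threshold (adjusted p 0.0740). On the deposited TPM the rise was steeper, with means 1.68-fold and 2.09-fold those of shScr. The step from shPkm1 to the shPkm2-labelled libraries was 0.25 (95% interval 0.03 to 0.47) and did not pass (adjusted p 0.0513). It passed in a fit on only the groups compared (0.25, adjusted p 0.00978) and in one blocked on replicate number (adjusted p 0.0470). With library totals as the only scaling it also passed (0.38, adjusted p 0.0113).

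Pygl, the liver form, lies on chromosome 12 (minus strand, 70190815 to 70227683) and was close to the limit of detection. It had 2 and 3 counts in shScr, 17 and 18 in shPkm1, and 0 and 1 in the shPkm2-labelled libraries, or at most 0.61 TPM. Scaled to effective library size (total count times TMM factor), shPkm1 had 6.08 times the counts of shScr, with a 95% counting interval of 2.37 to 19.9. Against the shPkm2-labelled libraries the raw counts were 35 to 1, and no ratio is given. Both other groups were at or under the floor of 3 counts, so no fold is given between them. Counting intervals leave out the spread between libraries. The interval given here tests nothing, because Pygl passed the low-count filter only through shPkm1.

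Because TPM is scaled to transcript length, the isozymes can be set against each other. Pygm made up 93.8% and 88.8% of the summed phosphorylase TPM in shScr, 60.4% and 60.5% in shPkm1, and 7.28% and 6.98% in the shPkm2-labelled libraries. Pygb held 6.15% and 11.2% in shScr, 38.9% and 38.9% in shPkm1, and 92.7% and 93.0% in the shPkm2-labelled libraries. The main isozyme was thus Pygm in 4 libraries and Pygb in the 2 labelled shPkm2. The sum of the 3 isozymes was 286 and 205 TPM in shScr, 86.4 and 88.0 in shPkm1, and 46.6 and 44.4 in the shPkm2-labelled libraries. In absolute terms the fall of Pygm by 222 TPM between the means of shScr and the shPkm2-labelled libraries was set against a rise of Pygb by 22.0 TPM.

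**Figure D2:**
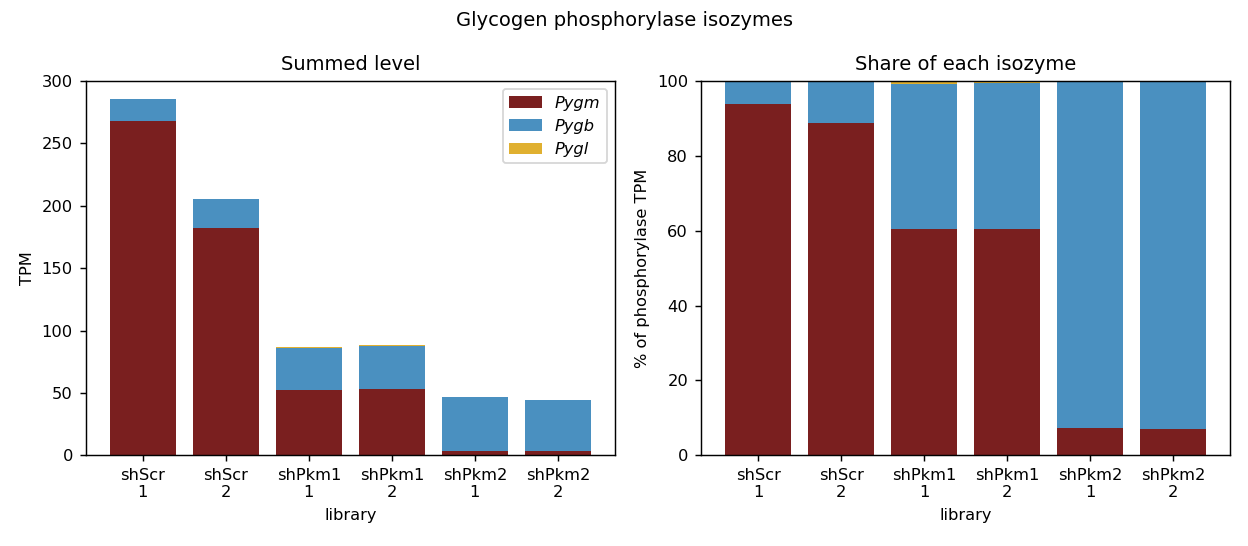
Summed TPM of the 3 phosphorylase genes (left) and the share of each in percent (right) for each of the 6 libraries on the x axis, with bars stacked by gene. The sum is highest in the control libraries, where Pygm holds 93.8% and 88.8% of it, and lowest in the shPkm2-labelled libraries, where Pygb holds 92.7% and 93.0%.

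Gys1, which encodes the synthase of muscle and most other tissues, fell in the same order as Pygm but by less. On chromosome 7 (plus strand, 45434839 to 45456617), it stood at 151 and 145 TPM in shScr, 87.6 and 85.5 in shPkm1, and 55.5 and 51.6 in the shPkm2-labelled libraries. The spread inside each group was small against the steps between groups. The edgeR log2 fold change was -1.17 for shPkm1 (SE 0.106, adjusted p 8.52e-07) and -1.93 for the shPkm2-labelled libraries (SE 0.109, adjusted p 4.58e-09). Between the Pkm hairpin groups it was -0.76 (SE 0.107, adjusted p 5.16e-05). On deposited TPM the means were 1.71-fold and 2.76-fold lower than in shScr. Gys2, the synthase of liver, had 2 counts in 1 control library and 0 in the other 5 libraries.

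The falls of Pygm and Gys1 went with the levels of the myotube markers given above and with higher levels of 6 markers of cycling cells, whose summed level was 84.5 and 113 TPM in shScr, 242 and 233 in shPkm1, and 740.3 and 670.5 in the shPkm2-labelled libraries. Of these 6, 5 were called higher in shPkm1 and 6 in the shPkm2-labelled libraries. Among the myotube markers, Myog had log2 fold changes of -0.94 and -5.35 against shScr and Mymk of -1.41 and -7.36. Bulk RNA cannot tell fewer cells of a type from less RNA per cell, and the part of differentiation and of cycling cells in the levels of the glycogen genes was not tested. By the root mean square difference of centred log2 CPM (counts scaled to library size) over the 6 libraries, the tested genes with a pattern most like that of Pygm were Plpp7 (0.154), Hjv (0.155) and Art1 (0.202). For Pygb they were Pitrm1 (0.0391), Abl1 (0.0396) and Pdia4 (0.0474). Pygl has too few counts for such a comparison. These distances describe 6 libraries of 3 groups, are on the log2 scale, and leave out predicted and clone-named genes.

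Promoters are shown for the 2 genes that fell in both comparisons with the widest steps and for the isozyme that rose, because myogenic factors such as Myog bind E-boxes, written CANNTG. Each is the 250 bases before the RefSeq start site in GRCm38.p6, 5′ to 3′ on the strand of the gene, with matches to CANNTG in capitals. They come from chr19:6384158-6384407 (plus strand), chr7:45434589-45434838 (plus strand) and chr2:150786546-150786795 (plus strand).
Pygm: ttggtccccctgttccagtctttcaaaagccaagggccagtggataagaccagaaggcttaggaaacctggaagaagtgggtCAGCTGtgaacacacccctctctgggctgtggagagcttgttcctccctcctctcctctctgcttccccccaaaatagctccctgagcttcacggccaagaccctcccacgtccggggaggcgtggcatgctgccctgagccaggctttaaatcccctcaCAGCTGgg
Gys1: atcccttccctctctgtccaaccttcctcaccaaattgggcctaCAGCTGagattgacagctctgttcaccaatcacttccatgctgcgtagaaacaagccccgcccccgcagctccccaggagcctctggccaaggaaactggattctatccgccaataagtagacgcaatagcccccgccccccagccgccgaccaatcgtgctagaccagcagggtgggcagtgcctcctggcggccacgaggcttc
Pygb: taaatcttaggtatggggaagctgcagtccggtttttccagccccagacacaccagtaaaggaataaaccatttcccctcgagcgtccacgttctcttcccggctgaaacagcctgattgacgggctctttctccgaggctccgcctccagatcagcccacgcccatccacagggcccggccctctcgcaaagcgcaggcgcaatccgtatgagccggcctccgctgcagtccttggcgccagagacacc
Matches to CAGCTG, a palindrome and a special case of CANNTG, numbered 2 for Pygm, with their first base at -168 and -8 from the start site, 1 for Gys1 at -206, and 0 for Pygb. The motif occurred in 5 of the 10 promoters of the 9 genes (Ugp2 has 2) and in 13.0% of all 32851 promoters of this length. Besides Pygm and Gys1 these were Ppp1r3c, Phka1 and 1 of those of Ugp2, while Phkg1, called lower in shPkm1, Gbe1 and Pygl had none. Any CANNTG occurred in 8 of 10 and in 66.2% of all. The MEF2 motif was in 0 of 10 on either strand and in 2.9% of all. A match is only a run of letters in this window.

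Ugp2, which makes the UDP-glucose that the synthase uses, was called lower in both comparisons with shScr on the TMM scale and in neither on TPM. Located on chromosome 11 (minus strand, 21321126 to 21371267), it had 51.1 and 43.4 TPM in shScr, 43.2 and 35.9 in shPkm1, and 42.4 and 43.9 in the shPkm2-labelled libraries. On this scale the lower control library lay within the range of the shPkm2-labelled libraries, so those groups overlapped, and just above both shPkm1 libraries. The edgeR test called it lower in shPkm1 (-0.67, SE 0.131, adjusted p 0.000665) and also in the shPkm2-labelled libraries (-0.59, SE 0.131, adjusted p 0.00129). Neither call held in limma on log2(TPM + 1) without a filter on low values (the TPM fit below), where the values were -0.25 and -0.12, and the second was lost with library totals only (-0.26, adjusted p 0.0805). The transcript NM_139297.6 held 56.2% to 67.2% of its TPM, and NM_001290634.1, with another first exon, the rest. The Pkm hairpin groups were 0.08 apart (95% interval -0.21 to 0.36).

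Gbe1, the branching enzyme, had 4.99 and 4.29 TPM in shScr, 7.18 and 6.54 in shPkm1, and 7.62 and 7.03 in the shPkm2-labelled libraries. It lies on chromosome 16 (plus strand, 70313949 to 70569720). On this scale both Pkm hairpin groups lay above the controls, and the TPM fit gave 0.48 (adjusted p 0.0123) and 0.56 (adjusted p 0.00587). The edgeR test relative to TMM gave 0.17 (95% interval -0.17 to 0.50, adjusted p 0.365) and 0.20 (-0.14 to 0.53, adjusted p 0.269) and called neither. With library totals as the only change the values were 0.36 (adjusted p 0.0522) and 0.53 (adjusted p 0.00707). The second was 0.40 without control library 1 and 0.01 without control library 2. The call for Gbe1 against shScr therefore differed between settings. Library totals moved the median of all tested genes by 0.19 and 0.32. The Pkm hairpin groups were 0.03 apart (95% interval -0.29 to 0.35).

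**Figure D3:**
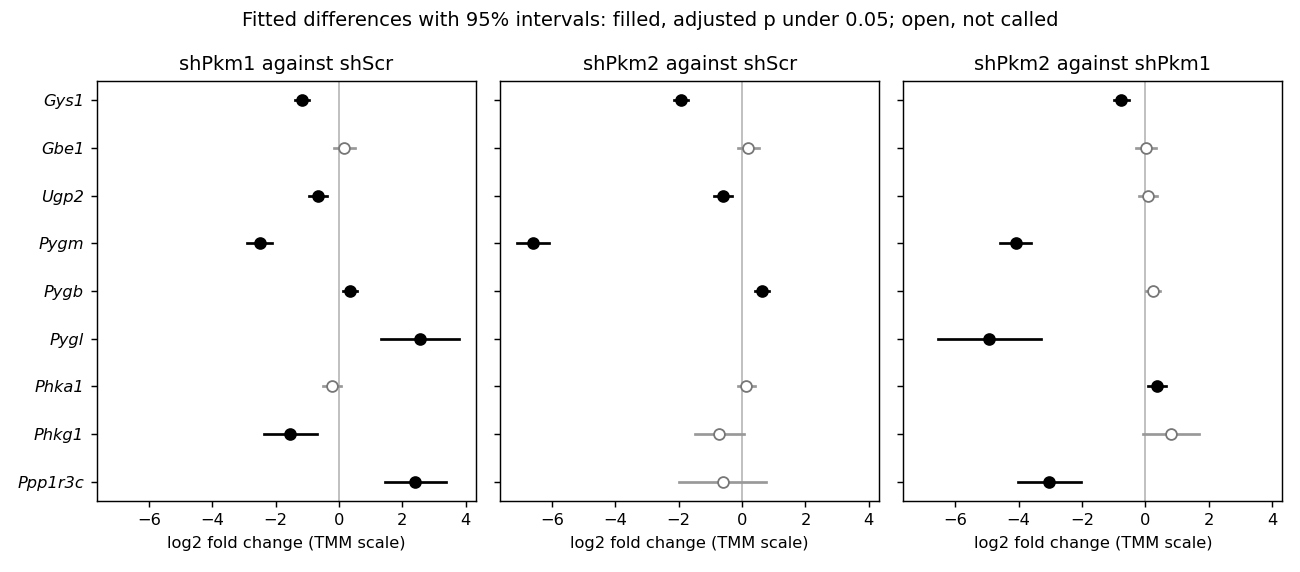
Log2 fold change on the TMM scale (x axis) of each gene (y axis) in the 3 comparisons, with points for the edgeR estimate and lines for its 95% interval. Filled points passed an adjusted p of 0.05, Pygm lies at -2.50, -6.59 and -4.09, and Pygl, at or under 3 counts in both groups, is left out of the middle panel, while Pygl and Ppp1r3c passed the low-count filter only through shPkm1.

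Phosphorylase kinase holds a regulatory alpha subunit, a beta subunit, a catalytic gamma subunit and calmodulin. Phka1, the alpha subunit of muscle, on chromosome X (minus strand, 102513975 to 102644301), had 4.87 and 4.95 TPM in shScr, 5.80 and 4.50 in shPkm1, and 7.09 and 6.71 in the shPkm2-labelled libraries. Summed over transcripts it was not called against shScr, at -0.23 (95% interval -0.51 to 0.05) in shPkm1 and 0.14 (-0.14 to 0.42) in the shPkm2-labelled libraries. With library totals only the second was 0.47 (adjusted p 0.00657), and in the TPM fit it was 0.42 (adjusted p 0.0314). The first ranged from -0.36 to -0.09 as each library was left out. The difference between the Pkm hairpin groups was 0.37 on the log2 scale, with the higher level in the shPkm2-labelled libraries (SE 0.128, adjusted p 0.0275), a call lost with DESeq2 (adjusted p 0.0919), in the TPM fit (0.37, adjusted p 0.0641), in limma on log2(TPM + 0.1) (0.43, adjusted p 0.0547), and without shPkm1 library 2 (0.23, adjusted p 0.244), shPkm2 library 1 (0.39, adjusted p 0.0853) or shPkm2 library 2 (0.33, adjusted p 0.146).

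The transcripts of Phka1 differed more than their sum. In GENCODE M21 the curated transcript NM_008832.2 has 33 exons and differs from NM_173021.3 by exon 19 (chrX:102557096-102557272 in GRCm38, minus strand), a coding exon of 177 bases whose length keeps the reading frame. Its sequence is shown because it is what tells the curated forms apart, 5′ to 3′ in the sense of the transcript, with nothing in capitals.
Phka1 exon 19: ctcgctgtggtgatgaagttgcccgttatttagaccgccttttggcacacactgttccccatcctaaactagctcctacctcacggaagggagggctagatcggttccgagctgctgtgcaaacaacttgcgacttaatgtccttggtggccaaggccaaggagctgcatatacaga
NM_008832.2, with the exon, held 33.1% and 41.6% of the Phka1 TPM in shScr, 58.8% and 70.4% in shPkm1, and 72.2% and 94.5% in the shPkm2-labelled libraries. In level it rose from 1.61 and 2.06 TPM to 3.41 and 3.17 and then to 5.12 and 6.34, without overlap between groups. NM_173021.3, without the exon, fell to 0.34 and 0 TPM in the shPkm2-labelled libraries from 1.40 and 0.82 in shScr, with 1.03 and 0.63 in shPkm1. Predicted transcripts held the rest, between 5.51% and 41.8% of the TPM. Whether they contain exon 19 is not known here, so these are shares of transcripts and not of the exon. These shares are the authors' estimates from reads that the transcripts mostly share, and they were not tested.

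**Figure D4:**
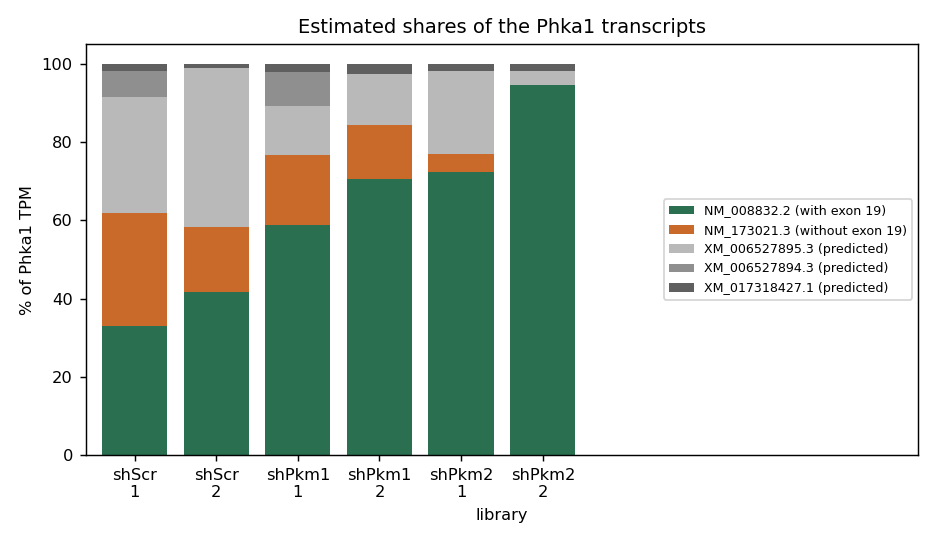
Estimated share of each RefSeq transcript in the Phka1 TPM (y axis, percent) for the 6 libraries on the x axis, with bars stacked by transcript. NM_008832.2, the curated transcript with exon 19, grows from 33.1% and 41.6% in shScr to 72.2% and 94.5% in the shPkm2-labelled libraries, and whether the predicted transcripts hold the exon is not known here.

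Phkg1, the catalytic subunit of muscle, on chromosome 5 (minus strand, 129863431 to 129879134), was low in all libraries. It had 41 and 24 counts in shScr, 12 and 14 in shPkm1, and 24 and 26 in the shPkm2-labelled libraries, which is at most 1.46 TPM. The edgeR test called it lower in shPkm1 (-1.53, SE 0.394, adjusted p 0.00421), but the value was -1.0 and no longer past the threshold without control library 1 (adjusted p 0.0531), and -1.94 without control library 2. In the shPkm2-labelled libraries it was -0.72 (95% interval -1.49 to 0.05, adjusted p 0.0870) and was not called, whereas it was -1.13 (adjusted p 0.00603) without control library 2 and -0.19 without control library 1. Phkg2, the gamma subunit of liver and other tissues, held 91.5% to 97.8% of the gamma subunit TPM, and Phka2, the liver alpha subunit, held 69.5% to 81.7% of the alpha subunit TPM.

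Ppp1r3c, also called PTG for protein targeting to glycogen, was, like Pygl, highest in shPkm1. On chromosome 19 (minus strand, 36731731 to 36736604), it had 7 and 4 counts in shScr, 27 and 42 in shPkm1, and 4 and 5 in the shPkm2-labelled libraries. Both shPkm1 libraries lay above the other 4. Scaled to effective library size, the counts in shPkm1 were 5.45 times those of shScr (95% counting interval 2.86 to 11.4). They were 8.39 times those of the shPkm2-labelled libraries (4.17 to 19.1). These intervals leave out the spread between libraries and test nothing, because Ppp1r3c passed the low-count filter only through shPkm1. The shPkm2-labelled libraries were not called against shScr (-0.61, 95% interval -1.99 to 0.76). All levels were under 1.5 TPM. Of the 5 fibroblast markers, Dpt was likewise highest in shPkm1, at 6.38 and 5.01 TPM against 0.68 and 0.21 in shScr and 0.17 and 0.22 in the shPkm2-labelled libraries, as were Col15a1 and, at under 0.25 TPM, Lum. The most abundant of them, Pdgfra, was at 10.2 and 9.47 TPM in the shPkm2-labelled libraries, 8.44 and 8.34 in shPkm1 and 1.02 and 1.61 in shScr, and Thy1 was at 0 in 5 of 6 libraries. Their part in the levels of Pygl and Ppp1r3c was not tested.

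The rest of the pathway was read from a list of 43 genes, of which 35 were tested. In shPkm1 25 of the 35 passed against shScr, 10 higher and 15 lower. For the shPkm2-labelled libraries 28 passed, 10 higher and 18 lower, and between the Pkm hairpin groups 18 passed, 9 in each direction. The share of all genes with a call was 63.1%, 68.0% and 53.0%, as above. Each count of lower genes against shScr includes Epm2a, whose call supports nothing because it passed the low-count filter only through shScr. With library totals only the splits against shScr were 13 higher and 11 lower in shPkm1 and 12 higher and 14 lower in the shPkm2-labelled libraries. The median log2 fold changes of the 35 were -0.23, -0.43 and -0.04. Called in 1 direction under TMM, DESeq2 size factors, library totals and the TPM fit were 17, 21 and 14 of them, Epm2a included in the first 2 counts. The share of all tested genes that met this was not computed, so these counts are no result about the pathway.

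Among genes of chain building, Gyg, which encodes glycogenin, fell in both comparisons with shScr, by -1.07 (SE 0.120) and -1.11 (SE 0.119), from 61.2 and 56.1 TPM to 40.0 and 34.0 in shPkm1 and 39.8 and 35.2 in the shPkm2-labelled libraries. Its levels overlapped between the Pkm hairpin groups. Phosphoglucomutase links glycogen to glycolysis. Against shScr, Pgm1 fell and Pgm2 rose in both Pkm hairpin groups. Unlike Pygm, Pgm1 was no lower in the shPkm2-labelled libraries than in shPkm1, and it stayed the most abundant of its family in every library. Pgm1 (NCBI gene 72157) was at 197 and 192 TPM in shScr, 110.4 and 106 in shPkm1, and 134 and 122 in the shPkm2-labelled libraries, with log2 fold changes of -1.24 and -1.07. Pgm2 (NCBI gene 66681) was at 12.6 and 19.2 TPM in shScr, 35.3 and 28.8 in shPkm1, and 48.9 and 45.4 in the shPkm2-labelled libraries, with log2 fold changes of 0.65 and 1.11. Older annotations exchange the names of these genes, so the numbers identify them. Of the summed TPM of Pgm1, Pgm2 and Pgm2l1, Pgm1 held 90.8% to 93.9% in shScr and 72.3% to 78.1% in the other libraries. Pgm2l1 rose by 1.03 and 2.03 on at most 92 counts. Hk2, a hexokinase of muscle, fell by 1.63 in shPkm1 and by 0.91 in the shPkm2-labelled libraries. Hk1, which held 87.1% to 93.3% of the hexokinase TPM, fell by 0.70 in shPkm1 and was not called in the shPkm2-labelled libraries (-0.23, or 0.22 in the TPM fit).

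Among genes of breakdown, Epm2a, which encodes laforin, a glycogen phosphatase, had 15 and 22 counts in shScr, 5 and 5 in shPkm1, and 5 and 6 in the shPkm2-labelled libraries. Its values are a description with no test, for the reason given above. Stbd1, a glycogen-binding protein, was not called in shPkm1 (0.08, adjusted p 0.491, but 0.47 with adjusted p 0.00308 in the TPM fit) and fell by 1.15 in the shPkm2-labelled libraries. Gaa, the lysosomal glucosidase, was at -0.53 and -0.68, calls that the TPM fit did not make (-0.14 and -0.21).

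Among the other subunits of phosphorylase kinase, the beta subunit Phkb was the one that rose in shPkm1. It had 12.6 and 10.1 TPM in shScr, 27.8 and 24.8 in shPkm1, and 10.6 and 9.72 in the shPkm2-labelled libraries. The edgeR log2 fold change was 0.75 in shPkm1 (SE 0.136, adjusted p 0.000343) and -1.45 for the shPkm2-labelled libraries against shPkm1 (SE 0.139, adjusted p 1.54e-06). Against shScr the shPkm2-labelled libraries were at -0.69, a call that the TPM fit did not make (-0.15, adjusted p 0.397). Phka2 was at -0.52 and -0.77, the first also without a call in that fit (-0.14). Phkg2 was at -0.15 and -0.43 and changed sign with the scaling, to 0.26 and 0.09 on TPM. Of the genes for calmodulin, Calm2 rose by 0.99 and 1.18, while Calm3 was at -0.52 and -0.26, which library totals turned to 0.06 in the second comparison.

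Of the targeting subunits of protein phosphatase 1, Ppp1r3b rose in shPkm1, from 14 and 8 counts in shScr to 45 and 43, with 18 and 14 in the shPkm2-labelled libraries. Its log2 fold change was 1.78 in shPkm1 (SE 0.371, adjusted p 0.00100) and -1.58 for the shPkm2-labelled libraries against shPkm1 (SE 0.346, adjusted p 0.00177). Ppp1r3f was not called in any comparison, at 41 to 90 counts. Ppp1r3e had 3 to 9 counts and was not tested, Ppp1r3g had 0 in all libraries, and Ppp1r3a, the targeting subunit of skeletal muscle, and Ppp1r3d were not analysed here. Of the catalytic subunits, Ppp1cb, the least abundant, rose by 1.21 and 0.78, from 13.2 and 12.5 TPM to 42.6 and 36.0 and to 31.1 and 29.8. Ppp1ca, the most abundant at 652 and 750.0 TPM in shScr, was not called (-0.20 in both comparisons, or 0.19 and 0.26 in the TPM fit). Ppp1cc, at 88.5 and 80.9 TPM in shScr, rose by 0.25 and 0.26. Its call in shPkm1 was close to the threshold in the edgeR test (adjusted p 0.0482) and was lost with DESeq2 size factors.

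Among kinases that act on the pathway, the muscle-enriched gamma subunit of AMP-activated kinase, Prkag3, stood out beside Pygm. It had 28.9 and 23.3 TPM in shScr, 19.4 and 16.5 in shPkm1, and 0.26 and 0.41 in the shPkm2-labelled libraries. In the edgeR test it was at -0.93 (SE 0.147, adjusted p 0.000111) and -6.62 (SE 0.245, adjusted p 8.33e-11). Prkag2 rose by 1.30 in the shPkm2-labelled libraries, to 7.56 and 7.16 TPM, and Prkag1 was not called against shScr (0.11 and 0.05), though the TPM fit called it higher in both (0.49 and 0.50). Of the catalytic subunits of AMP-activated kinase, Prkaa2 fell by 2.56 in the shPkm2-labelled libraries, while Prkaa1, which held 88.0% to 98.9% of their TPM, rose by 0.80 (adjusted p 1.05e-05). Their summed level was 21.7 and 20.4 TPM in shScr and 46.3 and 43.5 in the shPkm2-labelled libraries. Among catalytic subunits of protein kinase A, Prkaca fell by 1.39 in the shPkm2-labelled libraries, from 199 and 186 TPM to 100.7 and 100.5, while Prkacb rose by 0.26, from 19.6 and 21.2 TPM to 34.5 and 32.4. Prkaca was not called in shPkm1 (-0.23, adjusted p 0.0840), where TPM gave 0.17. Prkar2a, a regulatory subunit of protein kinase A, fell by 1.08 and 1.21, and Prkab2 by 1.03 in the shPkm2-labelled libraries, a value that was -0.49 (adjusted p 0.0664) in the TPM fit. Of the glycogen synthase kinases, Gsk3b rose by 0.46 and 0.38 and Gsk3a was not called (-0.20 and -0.14), though the TPM fit gave 0.20 and 0.32 and called the second.

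**Figure D5:**
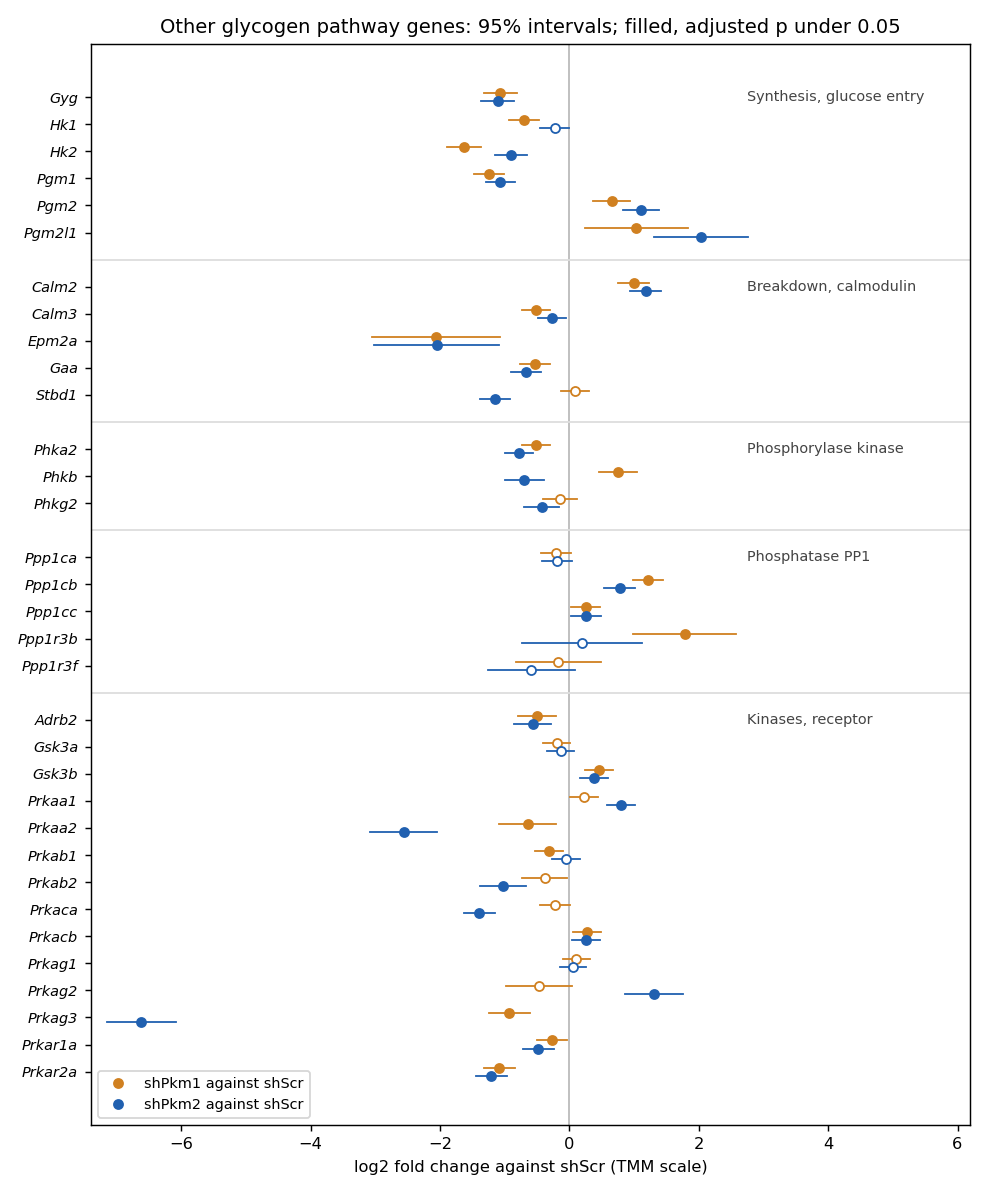
Log2 fold change against shScr on the TMM scale (x axis) for 33 of the 35 tested genes of the wider pathway (y axis, grouped by role), in orange for shPkm1 and blue for the shPkm2-labelled libraries, with 95% intervals and filled points past an adjusted p of 0.05. Prkag3 lies at -0.93 and -6.62, Gyg lies at -1.07 and -1.11, and Phkb and Ppp1r3b rise in shPkm1.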

How the data were processed

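RNA of 6 C2C12 libraries was sequenced. Per the file headers, the deposited table lists 57920 RefSeq transcripts, each with TPM, FPKM and an estimated count per library. Deposited FPKM values were not used. Per the submitters' processing notes, HISAT, StringTie, Bowtie, RSEM and DESeq2 were used with mm10; which made the estimated count is not given in the sources used here, nor is strandedness. A further 9 columns of group means were not used.

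Estimated counts and TPM were summed per NCBI gene, and counts rounded. RefSeq names for GRCm38.p6 matched 17445 of 17558 genes; the other 113 held at most 0.148% of a library. Genes were filtered with filterByExpr (minimum count 10, total 15) and tested with edgeR 4.0.16 in R 4.3.3 on all 6 libraries, 1 coefficient per group, TMM scaling. SE is the absolute log2 fold change over the root of F. A permutation of 2 against 2 cannot go below p = 0.333, so only fits across all genes were used. Tests were two-sided. A check on simulated counts changed a small share of genes, evenly in both directions, so it does not cover data in which most genes are called. Counting intervals are exact binomial.

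Alternatives were DESeq2 1.42.0, limma 3.58.1 on log2(TPM + 1) and log2(TPM + 0.1), with genes at 1 TPM or more in at least 2 libraries or unfiltered, other scalings and filters (mean of 50 counts), only the groups compared, a replicate block, and leaving out each library. Named are the 9 genes, pathway genes that complete a family with them or were called with a 2-fold change, Pkm, Myog, Mymk, and the 3 nearest patterns for Pygm and Pygb (mean of at least 50 counts, prior count 2, without predicted and clone-named genes); those the rule gives for Pygl are left out for its low counts. Dpt, Pdgfra, Col15a1, Cd68, Gaa, Calm3, Gsk3a, Gsk3b, Hk1, Ppp1ca, Ppp1cc, Prkaa1, Prkab1, Prkacb, Prkag1 and Prkar1a were named after their values were seen. The 9 genes and all lists were chosen with earlier results of these data known. The values of 2 pathway genes, which the counts include, are not reported here.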

Additional observations from a re-analysis of the deposited data

How the results depend on the processing

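Pygm and Gys1 kept direction and call in all 3 comparisons under all 16 alternatives run. The count of the 9 genes called stayed within 1.5 times its value except in 3 cases: a mean of at least 50 counts, which removes Pygl, Phkg1 and Ppp1r3c, gave 4 in shPkm1 against shScr and 3 between the Pkm hairpin groups, and limma on log2(TPM + 0.1), with 7 genes tested, gave 3 between the Pkm hairpin groups. Leaving out 1 library leaves a group of 1, so the counts of genes called in those fits are not given. Among the 9 genes signs changed only for values without a call: Gbe1 in shPkm1 ranged from -0.02, without control library 2, to 0.37 as each library was left out, Phka1 in shPkm1 was 0.05, 0.06 and 0.05 in the limma fits with pseudocount 1, with 0.1, and with 1 and no filter, and Ugp2 between the Pkm hairpin groups from -0.02, without shPkm1 library 2, to 0.16; the cause was not tested. Of the called pathway genes, Prkab1 and Prkar1a in shPkm1 and Calm3 and Phkg2 in the shPkm2-labelled libraries changed sign with the scaling. Of the single-gene values 16 lost and 20 gained a call. With the replicate number as a block 7, 4 and 6 of the 9 genes were called, the sixth being Pygb, and 24, 28 and 16 of the 35. In that fit 7922, 8566 and 6682 of all 12643 tested genes were called. Differences between replicates 1 and 2 correlated across genes at -0.03 to 0.05 between groups. The labels do not say that the number marks a batch. Counting noise weakens such a correlation, so it cannot exclude a shared batch. Library totals moved the median of all genes by 0.19, 0.32 and 0.13 and limma on log2(TPM + 1) by 0.34, 0.39 and 0.06, so changes of that size depend on the scaling: higher genes were 50.3%, 49.8% and 48.4% of all calls with TMM, 65.8%, 69.3% and 61.3% with library totals, and 78.9%, 76.6% and 54.6% in limma on log2(TPM + 1). Depth limits Pygl, Phkg1 and Ppp1r3c, at 0 to 42 counts per library.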
